A study of Mus musculus with 7 samples.

Results

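The nephron, the filtering unit of the kidney, is a chain of epithelial segments, each known by its own transporters. The 7 genes described here mark positions along that chain: Nphs1 in the podocyte of the glomerulus, Slc34a1 in the proximal tubule, Umod and Slc12a1 in the thick ascending limb, Slc12a3 and Kl in the distal convoluted tubule, and Aqp2 in the collecting duct. Nphs1 is a podocyte gene and not a tubule gene, so the set is called kidney genes below. They were taken by symbol from a table of 55536 genes, all 7 were found, and they were read in medullary thymic epithelial cells (mTECs), which are known to transcribe genes of many peripheral organs so that developing T cells meet those self-antigens in the thymus. The members were chosen by the normalized counts of the same Cre-positive and Cre-negative libraries, since Umod was among the largest rises there and the other names were set beside it, so the genotype differences of the 7 genes are given as a description with no test.

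The mTECs were sorted fresh as EPCAM-positive cells from mouse thymus into SMART-seq lysis buffer, a full-length RNA chemistry for small cell numbers. There were 3 Cre-positive libraries, labelled Cre(+) Ikzf1fl/fl Pou2f3-/- and numbered 45, 76 and 80, and 4 Cre-negative libraries, labelled Cre(-) Ikzf1fl/fl Pou2f3-/- and numbered 46, 48, 75 and 77. Both groups thus carry Ikzf1, which encodes the zinc finger factor Ikaros, in floxed form, and both are labelled as knockouts of Pou2f3, the factor that tuft cells need. The sources used here give neither the promoter behind Cre, the floxed exon, the strain, the sex, the age nor whether the numbered libraries come from separate animals. The p-values therefore measure the spread between these libraries, which may partly be technical. The study's title names Ikaros as a regulator of Aire-positive mTECs and of mimetic cell diversity, and the comparison asks what Cre changes where Pou2f3 is missing. Levels are normalized counts, which are reads divided by a size factor for each library, made by the authors.

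Ikzf1 had 1310.3, 1828.6 and 1677.5 normalized counts in Cre-positive 45, 76 and 80, against 1118.7, 1149.5, 1146.8 and 1219.0 in Cre-negative 46, 48, 75 and 77. Every Cre-positive library was thus above every Cre-negative library, and this rise was not called (log2 fold change 0.46, limma adjusted p = 0.0916). Since a deleted exon need not lower the summed level of the gene, that level does not check the labels, so Cre-positive means labelled so throughout. Pou2f3 had 17.8, 0 and 4.2 normalized counts in Cre-positive 45, 76 and 80, against 17.6, 19.7, 1.8 and 27.9 in Cre-negative 46, 48, 75 and 77. With no wild type among these libraries and no statement of which part was deleted, these reads do not check that label. Each library held 11383465 to 11623062 recovered reads in the Cre-positive group and 9815958 to 12599078 in the Cre-negative group. The mTEC markers Epcam, Aire, Krt5, Krt14, Cd80, H2-Aa, Cldn4, Fezf2, Ly6d and Cd74 were read in every library, with Epcam between 3882.7 and 6771.2 normalized counts. Of these 10 genes 2 were called higher (Krt5 and Krt14) and 4 lower (Aire, Cd80, Cldn4 and Ly6d), so the mTEC markers also moved with genotype. Summed markers of other cells in the Cre-positive and then the Cre-negative libraries ran from 541.7 to 2326.1 and from 690.8 to 1409.6 normalized counts for thymocytes (0 of 8 called), from 240.3 to 473.3 and from 325.9 to 446.7 for B cells (1 of 5 lower), from 234.6 to 363.5 and from 285.4 to 319.8 for endothelium (0 of 4 called), and from 364.8 to 610.9 and from 305.4 to 502.6 for tuft cells (0 of 5 tested called). They ran from 1087.9 to 1542.3 and from 1085.6 to 1508.9 for fibroblasts (2 of 5 lower) and from 17787.2 to 27262.4 and from 17295.4 to 20126.4 for cortical thymic epithelium (1 of 6 higher and 2 lower). The fibroblast sum was mostly Dcn, not called, while Col1a1 and Col1a2 were lower (means 75.4 against 260.2 and 21.7 against 108.4). In the cortical sum Ctsl was higher (12952.1 against 4664.4), while Ccl25 and Foxn1 were lower. Overlap of these sums thus does not show equal cell content. The myeloid sum did not overlap, at 7344.3 to 11316.7 normalized counts in Cre-positive and 5093.5 to 6888.8 in Cre-negative libraries. Most of it was Lyz2 alone, called higher, at 6925.8 to 11146.5 in Cre-positive and 4491.6 to 6130.3 in Cre-negative libraries. Adgre1 was called lower (28.0 to 56.4 against 137.9 to 402.2), as was Itgam (14.5 to 19.0 against 72.9 to 99.3). With 1 higher and 2 lower of 6, the sum gives no common direction for myeloid markers. No listed marker was at 0 in all 7 libraries. The part of these cells in the values below was not tested. Reads of Y-linked genes were found in Cre-negative 48 (3938 normalized counts summed over Ddx3y, Uty, Kdm5d and Eif2s3y), against at most 1.0 in every other library.

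In the kidney these genes carry the salt and water work of the tubule. Umod encodes uromodulin, a membrane-anchored glycoprotein that is cut off the cell by the protease hepsin and is the main protein of normal urine. Slc12a1 and Slc12a3 are related cotransporters, for sodium, potassium and chloride and for sodium and chloride, and they are the targets of loop and thiazide diuretics. Slc34a1 takes back phosphate, Kl is the co-receptor for the bone hormone FGF23 that lowers phosphate uptake, Aqp2 is the water channel that vasopressin brings to the surface, and Nphs1 encodes nephrin of the podocyte slit diaphragm.

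The start regions of Umod, Slc12a1 and Kl are shown because these are the 3 genes whose libraries did not overlap between the genotypes, Umod on the high side and the others on the low side. All 7 genes had an entry in the RefSeq promoter table (build GRCm38.p6, 250 bases before to 50 after the start). Capitals mark every match, on either strand, to TGGGAA, a core that Ikaros family proteins are known to bind.
Umod chr7:119479213-119479512 (minus strand): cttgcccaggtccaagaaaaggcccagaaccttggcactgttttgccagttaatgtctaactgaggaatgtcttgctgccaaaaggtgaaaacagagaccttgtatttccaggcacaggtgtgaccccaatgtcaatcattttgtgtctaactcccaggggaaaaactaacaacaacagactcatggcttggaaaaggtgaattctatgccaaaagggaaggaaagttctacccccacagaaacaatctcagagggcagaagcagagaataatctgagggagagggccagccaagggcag
Slc12a1 chr2:125152350-125152649 (plus strand): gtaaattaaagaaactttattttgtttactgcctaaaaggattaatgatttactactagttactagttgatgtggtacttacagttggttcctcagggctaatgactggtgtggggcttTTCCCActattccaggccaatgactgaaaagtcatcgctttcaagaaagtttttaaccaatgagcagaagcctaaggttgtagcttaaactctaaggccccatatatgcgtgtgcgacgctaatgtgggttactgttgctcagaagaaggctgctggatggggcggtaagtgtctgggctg
Kl chr5:150952357-150952656 (plus strand): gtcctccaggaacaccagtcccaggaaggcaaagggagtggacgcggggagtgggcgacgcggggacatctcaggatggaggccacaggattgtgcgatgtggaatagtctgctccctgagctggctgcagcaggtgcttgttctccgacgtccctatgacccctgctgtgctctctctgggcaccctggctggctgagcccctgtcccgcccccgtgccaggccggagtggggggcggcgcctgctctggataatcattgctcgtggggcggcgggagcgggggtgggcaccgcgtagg
The Slc12a1 window held 1 TGGGAA on the opposite strand, 131 bases before the start, where it reads TTCCCA. That distance holds for the RefSeq start only, since the gene as placed below begins at 125152505, within the window and before that start. As one unbroken run, the bases just after the RefSeq start were found in a GENCODE M21 transcript of Umod and of Kl, but not of Slc12a1. An exon that ends within the run would also give no match, so their absence from Slc12a1 transcripts is not shown. The Umod and Kl windows held no TGGGAA, nor did those of the other 4 genes. Of 32851 RefSeq promoter windows of the same length, 25.6% held TGGGAA. The windows also differed in composition, with 0 CpG in that of Umod (47.3% GC), 5 in that of Slc12a1 (42.7% GC) and 19 in that of Kl (67.3% GC), where the median window has 7 CpG and 52.7% GC. A match describes letters only, and binding was not measured.

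The 7 kidney genes did not move together. Umod was higher in every Cre-positive library, Slc12a1 was nearly lost there and Kl was low. Slc34a1 was low in most Cre-positive libraries, and Aqp2 had few reads in both groups. In Cre-positive libraries Slc12a3 spread on both sides of its Cre-negative range, and Nphs1 lay within or above its own. The libraries of the genotypes did not overlap for 3 of the 7 genes, 1 higher and 2 lower. Among the 22874 genes that averaged 5 normalized counts or more, 25.3% did not overlap, 10.9% higher and 14.5% lower, and since the members were chosen with this contrast in view nothing is read from their share. Fewer cells of a type and less RNA per cell cannot be told apart in these bulk libraries. Fold changes are differences of group means of log2(normalized count + 1), Cre-positive over Cre-negative, a scale that shrinks changes near 0.

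**Figure D1:**
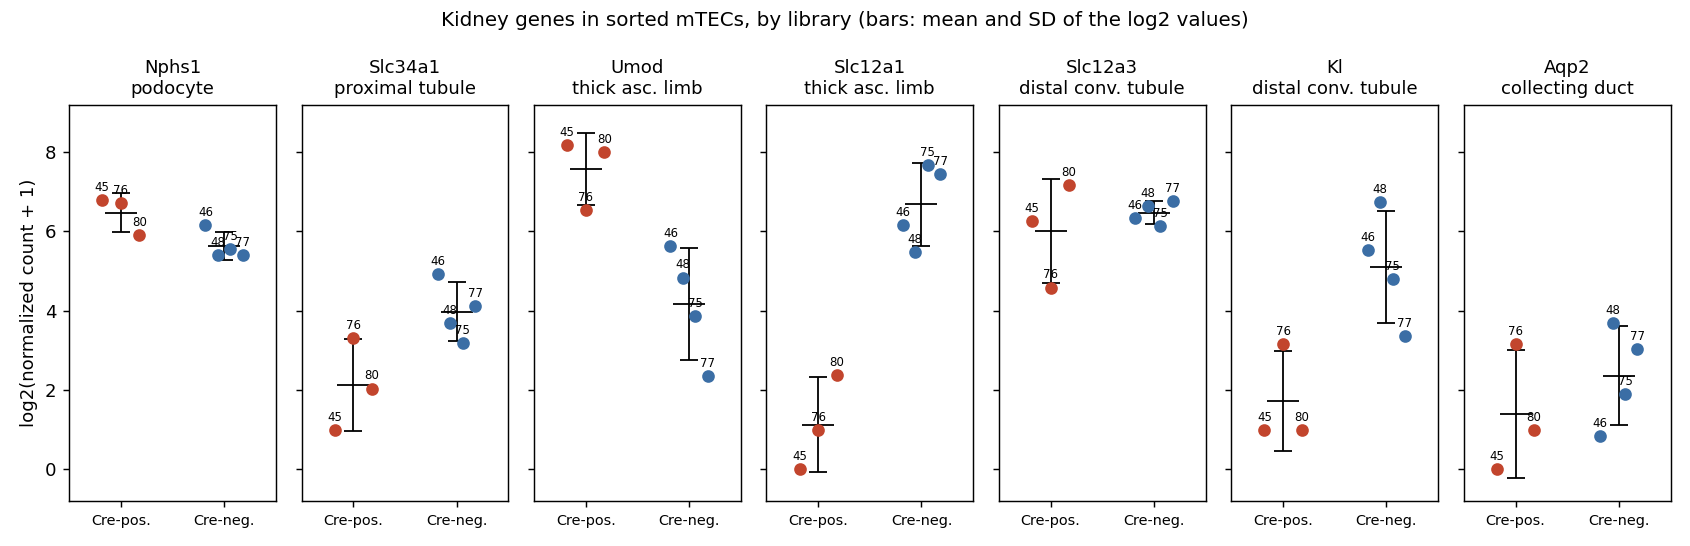
Each panel plots log2(normalized count + 1) of a kidney gene in the 3 Cre-positive (left, red) and 4 Cre-negative (right, blue) libraries, labelled by number, with the mean and SD of the log2 values. All Cre-positive points of Umod lie above its Cre-negative points, those of Slc12a1 and Kl lie below, and the groups overlap for the other 4 genes.

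Nphs1 (ENSMUSG00000006649, chromosome 7, 30458315 to 30487223 on GRCm38, plus strand) had 110.8, 104.1 and 59.2 normalized counts in Cre-positive 45, 76 and 80, against 70.4, 41.4, 45.9 and 41.4 in Cre-negative 46, 48, 75 and 77. The groups overlapped, since Cre-positive 80 lay below Cre-negative 46. Its log2 fold change was 0.85 (within-group SD 0.42) and ran from 0.68 without Cre-positive 45 to 1.13 without Cre-positive 80. That within-group SD was the smallest of the 7 members. Among Cre-negative libraries alone Slc12a3 had a narrower range, 1.56-fold against 1.70-fold for Nphs1.

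Slc34a1 (ENSMUSG00000021490, chromosome 13, 55398187 to 55415592, plus strand) had 1.0, 9.0 and 3.1 normalized counts in Cre-positive 45, 76 and 80, against 29.3, 11.8, 8.1 and 16.5 in Cre-negative 46, 48, 75 and 77. The groups touched, because Cre-positive 76 was above Cre-negative 75. The log2 fold change was -1.86 (within-group SD 0.93), and it was -1.30 without Cre-positive 45 and -2.46 without Cre-positive 76. These values rest on 13 reads in all Cre-positive and 72 reads in all Cre-negative libraries.

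Umod (ENSMUSG00000030963, chromosome 7, 119462711 to 119479282, minus strand) had 289.4, 92.1 and 257.4 normalized counts in Cre-positive 45, 76 and 80, against 48.6, 27.6, 13.5 and 4.1 in Cre-negative 46, 48, 75 and 77. Its lowest Cre-positive library was above its highest Cre-negative library. The means were 213.0 ± 106 in Cre-positive (SD, n = 3) and 23.5 ± 19.3 in Cre-negative libraries (SD, n = 4), a ratio of 9.08. The log2 fold change was 3.41 (within-group SD 1.23), and it ran from 2.80 without Cre-negative 77 to 3.93 without Cre-positive 76. Within the Cre-negative group the highest library had 11.9 times the level of the lowest, and within the Cre-positive group 3.14 times. Among Cre-negative libraries the mean was 38.1 in 46 and 48 and 8.8 in 75 and 77.

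Slc12a1 (ENSMUSG00000027202, chromosome 2, 125152505 to 125230002, plus strand) had 0, 1.0 and 4.2 normalized counts in Cre-positive 45, 76 and 80, against 71.2, 43.3, 203.6 and 172.7 in Cre-negative 46, 48, 75 and 77. All 3 Cre-positive libraries together gave 5 reads, against 522 in the 4 Cre-negative libraries. The means were 1.73 ± 2.19 (SD, n = 3) and 122.7 ± 77.5 (SD, n = 4), so the Cre-negative mean was 70.8 times the Cre-positive mean. The log2 fold change was -5.56 (within-group SD 1.11), with -6.19 without Cre-positive 80 and -5.001 without Cre-positive 45. Cre-negative 46 and 48, the pair with more Umod, had less Slc12a1, at a mean of 57.3, against 188.2 in Cre-negative 75 and 77. Umod and Slc12a1, both defining genes of the thick ascending limb, thus differed in opposite directions between the genotypes.

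Slc12a3 (ENSMUSG00000031766, chromosome 8, 94329201 to 94366214, plus strand) had 76.3, 23.0 and 142.2 normalized counts in Cre-positive 45, 76 and 80, against 80.4, 99.5, 69.4 and 108.6 in Cre-negative 46, 48, 75 and 77. The Cre-positive libraries spanned a 6.18-fold range that enclosed the 1.56-fold range of the Cre-negative libraries. The log2 fold change of -0.47 (within-group SD 0.86) turned to 0.24 without Cre-positive 76 and was -1.05 without Cre-positive 80. No direction was therefore stable for this gene.

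Kl (ENSMUSG00000058488, chromosome 5, 150952607 to 150993817, plus strand) had 1.0, 8.0 and 1.0 normalized counts in Cre-positive 45, 76 and 80, against 45.3, 106.4, 27.0 and 9.3 in Cre-negative 46, 48, 75 and 77. The groups were separated only by the step between 8.0 in Cre-positive 76 and 9.3 in Cre-negative 77. The log2 fold change was -3.39 (within-group SD 1.35), with -4.11 without Cre-positive 76 and -2.85 without Cre-negative 48, the library with Y-linked reads. The Cre-positive libraries together held 10 reads of Kl.

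Aqp2 (ENSMUSG00000023013, chromosome 15, 99579056 to 99584545, plus strand) had 0, 8.0 and 1.0 normalized counts in Cre-positive 45, 76 and 80, against 0.8, 11.8, 2.7 and 7.2 in Cre-negative 46, 48, 75 and 77. The groups overlapped, although Cre-positive 45 had no read. These values rest on 9 reads in all Cre-positive and 23 reads in all Cre-negative libraries. With a mean of 4.52 normalized counts it was the only member below the minimum of 5, so 6 of the 7 genes passed that filter. Its log2 fold change of -0.97 (within-group SD 1.41) ran from -1.86 without Cre-positive 76 to -0.28 without Cre-positive 45.

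Within each range of sample numbers the direction of each gene was the same as in all libraries. Between Cre-positive 45 and Cre-negative 46 and 48 the log2 fold change was 2.95 for Umod, -5.82 for Slc12a1, -5.14 for Kl, -3.30 for Slc34a1 and 1.02 for Nphs1. Between Cre-positive 76 and 80 and Cre-negative 75 and 77 it was 4.17 for Umod, -5.87 for Slc12a1, -2.001 for Kl, -0.98 for Slc34a1 and 0.83 for Nphs1. Slc12a3 gave -0.23 and -0.58, and Aqp2 gave -2.26 and -0.38. The labels do not say what the numbers stand for.

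Levels of different genes were set against each other as RPKM, which is reads per kilobase of exon with all libraries scaled to one total, computed from the recovered reads with exon lengths from GENCODE M21. In Cre-positive libraries Umod was first at 6.48 ± 3.13 (SD, n = 3), and its libraries, from 2.92 to 8.81, did not overlap those of Nphs1, next at 1.18 ± 0.377. Below them came Slc12a3 at 0.606 ± 0.440, Aqp2 at 0.185 ± 0.270, Slc34a1 at 0.0810 ± 0.0783, Kl at 0.0313 ± 0.0381 and Slc12a1 at 0.0250 ± 0.0310, and each of these overlapped its neighbour in the order. In Cre-negative libraries Slc12a1 was first at 2.06 ± 1.27 (SD, n = 4), then Umod at 0.827 ± 0.669, Slc12a3 at 0.790 ± 0.182, Nphs1 at 0.731 ± 0.185, Kl at 0.503 ± 0.475, Aqp2 at 0.400 ± 0.361 and Slc34a1 at 0.342 ± 0.184. Every neighbouring pair in that order overlapped. By group mean Slc12a1 was thus last of the 7 genes per length in Cre-positive libraries and first in Cre-negative libraries. Single libraries differed, since in Cre-negative 46 Umod (1.67) was above Slc12a1 (1.17). In Cre-negative 48 Slc12a1 (0.778) was below Kl (1.18), Umod (1.03), Slc12a3 (0.925) and Aqp2 (0.862). Of the normalized counts of all 7 genes, Umod took 60.5%, 37.6% and 55.0% in Cre-positive 45, 76 and 80 and 14.0%, 8.07%, 3.65% and 1.14% in Cre-negative 46, 48, 75 and 77.

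**Figure D2:**
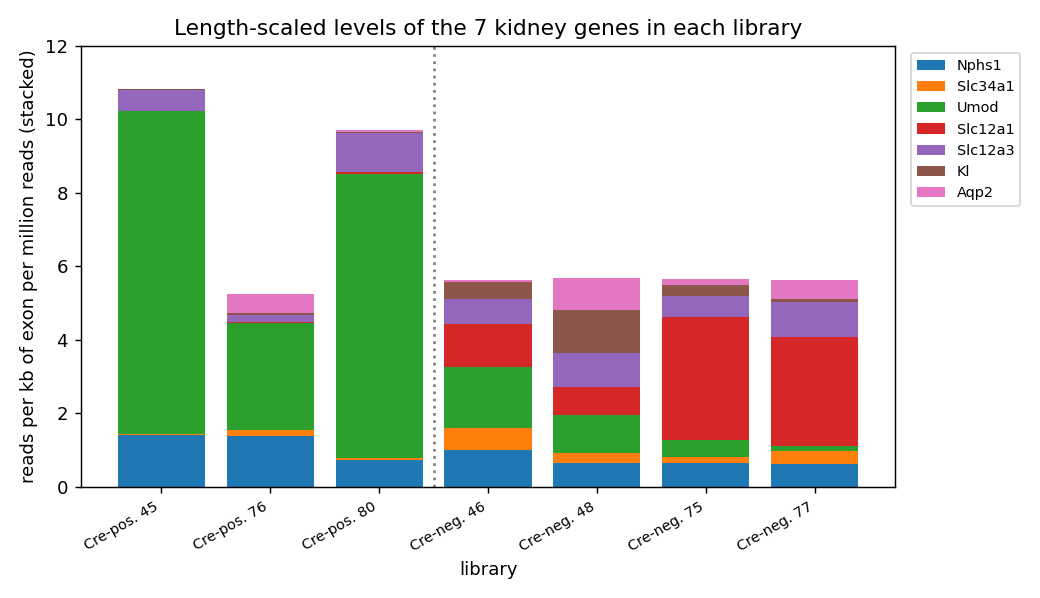
Stacked bars give the level of each kidney gene in RPKM, on a linear axis, in the 3 Cre-positive libraries (left) and the 4 Cre-negative libraries (right). Umod is the tallest segment of each Cre-positive bar, where Slc12a1 is barely visible. Slc12a1 is the tallest segment in Cre-negative 75 and 77, Umod in Cre-negative 46 and Kl in Cre-negative 48.

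The genes with the most similar patterns were found by the root mean square difference of log2 values over the 7 libraries, each gene centred on its own mean. Aqp2, below the filter, was left out of this search. Closest to Umod were Gm3264 (0.49), Chil6 (0.69) and 1700016F12Rik (0.70). Closest to Slc12a1 were Cd209a (0.48), Trh (0.55) and Hemgn (0.57), and to Kl Cxcl15 (0.28), Gm37022 (0.39) and Arl14epl (0.39). Slc34a1 lay nearest Slc11a1 (0.28), Cdh6 (0.28) and Olfr523 (0.32), Slc12a3 nearest 9330136K24Rik (0.21), Ccr2 (0.24) and Bud13 (0.25), and Nphs1 nearest Fundc2, Aaed1 and Tgfbr1 (0.13, 0.13 and 0.16). None of the 7 genes was among the 3 nearest of another. Between members the difference was smallest for Slc12a3 and Nphs1 (1.17) and for Kl and Slc34a1 (1.34), and largest for Umod and Slc12a1 (4.76).

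In the genome, the nearest gene before Slc12a1 and an antisense gene within it were also lower in Cre-positive libraries, the nearest gene after it was not called, and neither were the nearest genes on the sides of Umod. Umod is flanked by Gp2, its close relative, 3426 bp away, with 839.1, 421.6 and 1039.1 normalized counts in Cre-positive 45, 76 and 80, against 390.5, 718.1, 549.5 and 164.4 in Cre-negative 46, 48, 75 and 77. These groups overlapped (log2 fold change 0.84, SE 0.44, limma adjusted p = 0.227). On the other side Pdilt, 7305 bp away, averaged 22.1 ± 13.7 in Cre-positive and 10.0 ± 10.5 in Cre-negative libraries (adjusted p = 0.335). The only gene overlapping Umod, Gm44588 on the opposite strand, had no read in any library.

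Ctxn2, which ends 4666 bp before Slc12a1 on the same strand, had 0, 1.0 and 0 normalized counts in Cre-positive 45, 76 and 80, against 57.8, 20.7, 8.1 and 26.9 in Cre-negative 46, 48, 75 and 77 (log2 fold change -4.24, SE 0.91, limma adjusted p = 0.00891). Gm14002, antisense within Slc12a1, had 0, 2.0 and 0 in Cre-positive 45, 76 and 80, against 13.4, 18.7, 20.7 and 22.7 in Cre-negative 46, 48, 75 and 77 (log2 fold change -3.76, adjusted p = 0.0125). Whether counting used strand is not stated, so reads of Gm14002 and Slc12a1 cannot be told apart where they overlap. Dut, a nucleotide metabolism gene 17188 bp past Slc12a1, was not called (0.57, adjusted p = 0.182). Prodh2, 6399 bp past Nphs1, fell to 0.333 ± 0.577 normalized counts in Cre-positive libraries, against 26.7 ± 11.8 in Cre-negative libraries (log2 fold change -4.34, adjusted p = 0.00508), while Nphs1 itself was not lower. Kirrel2, a nephrin relative 625 bp from Nphs1 on the opposite strand, was not called (44.5 ± 18.9 in Cre-positive and 27.9 ± 10.0 in Cre-negative libraries, adjusted p = 0.520). Neither of the nearest read genes of Slc12a3 (C78859 and Gm15889), Kl (Pds5b and Stard13), Aqp2 (Faim2 and Aqp5) or Slc34a1 (Rgs14 and Grk6) was called. Within Nphs1, the pseudogene Rps12-ps4 (adjusted p = 0.591) and Nphs1os (below the minimum) lie on the opposite strand, and Pfn3 within Slc34a1 had no read.

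The wider kidney programme was described through 135 other genes in lists by nephron segment and function, of which 124 passed the filter on low values. A limma fit to log2(normalized count + 1), with a trend of variance on level, called 30 of them (24.2%) at a Benjamini-Hochberg adjusted p under 0.05 over all 22874 genes tested, 4 higher (3.23%) and 26 lower (21.0%). Over all genes tested 13.8% were called, 4.66% higher and 9.11% lower. The lists were also chosen with earlier results of these data known, so nothing is read from the difference between these shares. Among the called genes, Kap, Slc14a2, Aqp6, Klb, Cldn16, Emx1, Slc4a1, Ggt1, Esrrb and Scnn1b averaged below 5 normalized counts in Cre-positive libraries. They passed the filter only through the Cre-negative libraries, so their p-values are given as a description only. The median log2 fold change was -1.04 over the 124 genes and -0.10 over all genes tested, or -0.29 over all genes with library total scaling. The lower count was 14 without Cre-negative 77 and 16 without Cre-positive 45, and 16 of the 30 calls held without any single library. A covariate for Y-linked reads ended the calls of Aqp6, Cldn16, Emx1, Slc5a1, Scnn1b, Lrp2, Slc4a9, Slc34a2 and Slc12a7 (adjusted p = 0.0537 to 0.177). Without the filter on low values Cldn16, Slc4a1, Slc34a2, Slc12a7 and Pvalb were not called (0.0588 to 0.0850), and with a pseudocount of 5 Slc4a1 was not called (0.0547).

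**Figure D3:**
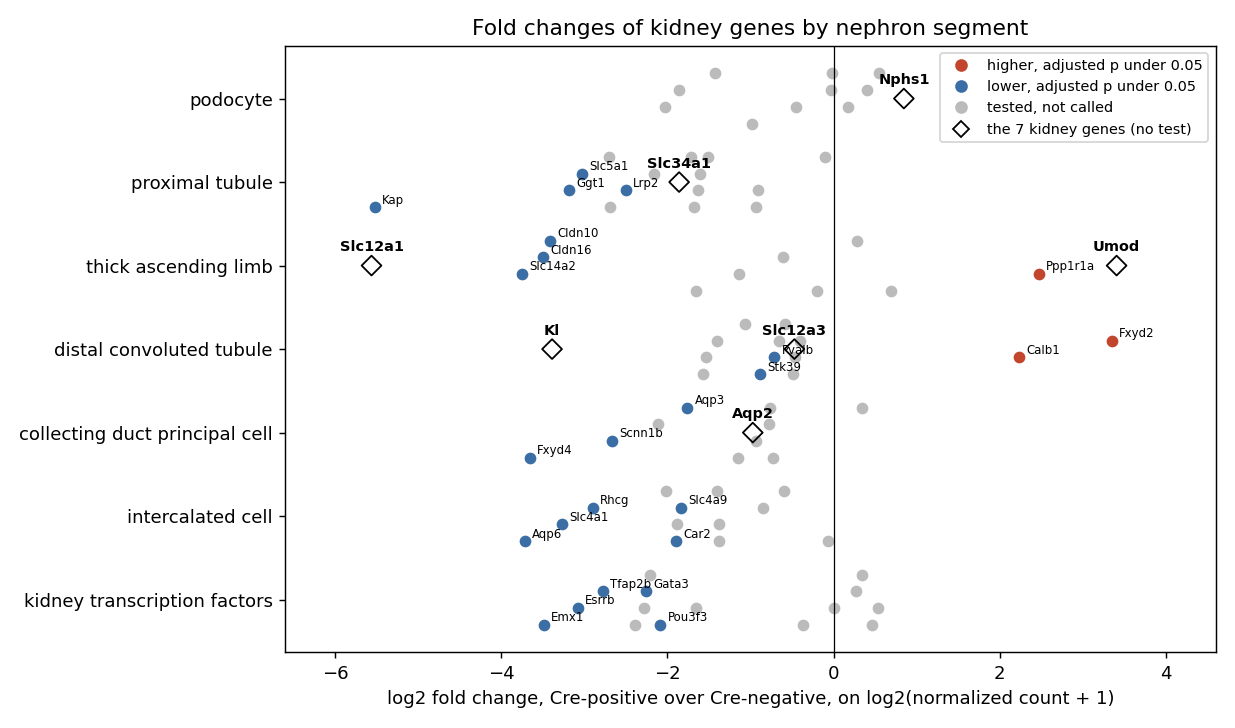
Each point is the log2 fold change of a kidney gene, Cre-positive over Cre-negative, on the log2(normalized count + 1) scale, arranged by nephron segment, with genes called higher in red, called lower in blue and not called in grey. Open diamonds are the 7 kidney genes, given without a test; Umod, Fxyd2, Ppp1r1a and Calb1 stand apart on the right.

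In the thick ascending limb list, 4 of 11 other genes tested were lower and 1 was higher, with a median log2 fold change of -1.14. Over all genes tested limma called 9.11% lower and 4.66% higher. Since the lists were chosen with earlier results known, nothing is read from the counts in this or the later lists. Ppp1r1a, an inhibitor of protein phosphatase 1, had 1714.7, 1754.5 and 1904.8 normalized counts in Cre-positive 45, 76 and 80, against 305.9, 172.4, 429.7 and 472.5 in Cre-negative 46, 48, 75 and 77 (log2 fold change 2.47, SE 0.30, limma adjusted p = 2.51e-04). Cldn10, a tight junction protein of the paracellular sodium path, fell to 19.1 ± 18.5 in Cre-positive, against 153.9 ± 30.3 in Cre-negative libraries (-3.41, adjusted p = 0.00304), with -4.16 without Cre-positive 45 and -2.65 without Cre-positive 76. Slc14a2, a urea transporter gene of the thin limb and inner collecting duct kept in this list, fell to 3.80 ± 1.64, against 61.8 ± 12.8 (-3.75, adjusted p = 0.00182). Cldn16, for paracellular magnesium, was lower (-3.50, adjusted p = 0.0298) but the call held only without Cre-negative 46 (otherwise 0.0535 to 0.0824), with -2.90 without Cre-negative 75. This list thus held calls in both directions.

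In the distal convoluted tubule list 2 of 13 other genes were higher and 2 lower (median -0.65), against 4.66% higher and 9.11% lower over all genes tested. Fxyd2, the gamma subunit of the sodium pump, had 22890.3, 24732.0 and 30158.3 normalized counts in Cre-positive 45, 76 and 80, against 2453.7, 2366.0, 3300.7 and 2096.7 in Cre-negative 46, 48, 75 and 77 (log2 fold change 3.35, SE 0.17, limma adjusted p = 9.12e-07). Calb1, a calcium buffer of this segment, had 1220.5, 1492.1 and 1807.2 in Cre-positive 45, 76 and 80, against 519.6, 425.5, 400.9 and 112.7 in Cre-negative 46, 48, 75 and 77 (log2 fold change 2.23, SE 0.42, limma adjusted p = 0.00391; 1.74 without Cre-negative 77). Both groups were separate for each of these genes. The lower genes were Stk39, a kinase that activates Slc12a1 and Slc12a3 (-0.89, adjusted p = 0.0339), and Pvalb, a calcium buffer (-0.71, adjusted p = 0.0488), both named after their values were seen. Leaving out Cre-positive 45 or 76, or Cre-negative 46, 75 or 77, ended both calls (0.0722 to 0.157), and Pvalb was not called by edgeR (0.0603), with a term for sample number range (0.0502) or with a pseudocount of 0.5 (0.0508). Wnk1, the kinase upstream of Stk39, averaged 958.6 ± 234 in Cre-positive and 1248 ± 80.8 in Cre-negative libraries (-0.40, adjusted p = 0.175), and was called lower with library total scaling (-0.61, adjusted p = 0.0461).

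For the proximal tubule, collecting duct, intercalated cell and aquaporin lists the count of higher genes was 0 by limma, also at an unadjusted p under 0.05, by edgeR and by DESeq2. By limma 4.66% of all genes tested were called higher, so 0 in lists this small is near that share and nothing is read from it. At an unadjusted p under 0.05 limma gave 6505 of the 22874 genes tested in either direction, and the part of them that was higher is not given here. No share over all genes is given for the edgeR and DESeq2 counts, so nothing is read from those either. In the proximal tubule list 4 of 15 other genes tested were lower and none higher, and all 15 fold changes were below 0 (median -1.72). Over all 22874 genes tested 9.11% were called lower and 12510 fold changes were below 0. Kap, the androgen-regulated protein of mouse proximal tubule, had 0, 3.0 and 1.0 normalized counts in Cre-positive 45, 76 and 80, against 179.3, 68.0, 44.1 and 126.1 in Cre-negative 46, 48, 75 and 77 (log2 fold change -5.52, SE 0.75, limma adjusted p = 6.01e-04). Its value in Cre-negative 48, the library with Y-linked reads, lay inside the range of the other Cre-negative libraries. Ggt1, an enzyme of glutathione breakdown at the brush border, fell to 3.07 ± 0.0577 in Cre-positive, against 39.9 ± 20.4 in Cre-negative libraries (-3.18, adjusted p = 0.0108). Slc5a1, a sodium glucose cotransporter, and Lrp2, the endocytic receptor megalin, were lower (-3.02 and -2.50, adjusted p = 0.0231 and 0.0166). The Slc5a1 call ended when Cre-positive 45 or 80 or Cre-negative 48, 75 or 77 was left out (0.0538 to 0.0681), and it had -3.85 without Cre-positive 76 and -2.35 without Cre-positive 45, and the Lrp2 call ended when Cre-negative 48 (0.0623) or Cre-negative 77 (0.0572) was left out. With edgeR Slc5a1 was not called (0.0762). Of 19 other genes in this list 4 were below the filter, among them the glucose and organic anion transporter genes Slc5a2 and Slc22a6, named here after their values were seen, at means of 2.31 and 3.22 normalized counts over all libraries.

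In the collecting duct principal cell list 3 of 10 other genes tested were lower and none higher (median -1.04), against 9.11% lower over all genes tested. Fxyd4, a sodium pump regulator, had 23.0, 2.0 and 13.5 normalized counts in Cre-positive 45, 76 and 80, against 139.1, 198.0, 182.0 and 51.7 in Cre-negative 46, 48, 75 and 77 (log2 fold change -3.66, SE 0.72, limma adjusted p = 0.00527), with -4.28 without Cre-positive 45 and -2.78 without Cre-positive 76. Aqp3, the basolateral partner of Aqp2 in water transport, fell to 131.6 ± 51.6 in Cre-positive, against 444.6 ± 145 in Cre-negative libraries (-1.76, adjusted p = 0.00386), and is named after its values were seen. Scnn1b, a subunit of the epithelial sodium channel, was lower (-2.67, adjusted p = 0.0208), but not without Cre-negative 46 (0.0741) or Cre-negative 77 (0.0516). The vasopressin receptor gene Avpr2, also named after its values were seen, was not read in any Cre-positive library and had at most 0.9 normalized counts in Cre-negative libraries. Counting the aquaporin list as such, 2 of 9 genes tested were lower (Aqp3 and Aqp6), against the same 9.11% over all genes. None was higher, and the median was -1.60.

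In the intercalated cell list 5 of 13 genes were lower and none higher, with all 13 fold changes below 0 (median -1.84). Among all genes tested 9.11% were called lower and 12510 of 22874 fold changes were below 0. Car2, a carbonic anhydrase, had 44.9, 59.1 and 131.8 normalized counts in Cre-positive 45, 76 and 80, against 307.6, 190.1, 291.9 and 292.6 in Cre-negative 46, 48, 75 and 77 (log2 fold change -1.90, SE 0.37, limma adjusted p = 0.00538). The other 4 calls each ended without some single library. Aqp6, an intracellular channel, had no read in Cre-positive libraries, so that against 3 reads over the group its mean was at least 13.7-fold lower there, and its adjusted p of 0.0218 became 0.0506 to 0.0569 without Cre-negative 77, Cre-positive 45 or Cre-positive 80. The anion exchanger Slc4a1 (-3.27, adjusted p = 0.0365) was not called when any library other than Cre-negative 48 was left out (0.0515 to 0.106). Rhcg, an ammonia transporter (-2.90, adjusted p = 0.0325), lost its call when Cre-positive 45 or 76 or Cre-negative 46, 75 or 77 was left out (0.0615 to 0.0990), with -2.07 without Cre-positive 45 and -3.64 without Cre-positive 80. Slc4a9, an anion exchanger of these cells (-1.84, adjusted p = 0.0353), was not called when any library other than Cre-positive 80 was left out (0.0556 to 0.105), with -1.11 without Cre-positive 76. edgeR called neither Rhcg (0.0716) nor Slc4a9 (0.0836).

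Of 17 tested transcription factors of kidney development 5 were lower and none higher by limma (median -2.09). Over all genes tested 9.11% were lower and 4.66% higher. At an unadjusted p under 0.05 limma gave 1 higher, where 6505 of 22874 genes tested passed in either direction. DESeq2 called 1 higher and edgeR 0. Fold changes were below 0 for 11 of the 17 and for 12510 of all 22874 genes tested. Tfap2b, known in distal nephron, had 168.2, 222.3 and 191.0 normalized counts in Cre-positive 45, 76 and 80, against 1052.5, 1618.3, 1242.3 and 1470.2 in Cre-negative 46, 48, 75 and 77 (log2 fold change -2.78, SE 0.21, limma adjusted p = 1.10e-05). Pou3f3, which mouse kidney needs to form the thick ascending limb, fell to 41.2 ± 7.51 in Cre-positive, against 180.9 ± 46 in Cre-negative libraries (-2.09, adjusted p = 0.00216). Gata3, of the collecting duct lineage, fell to 39.0 ± 27.1, against 168.8 ± 54.3 (-2.25, adjusted p = 0.00871), and Esrrb, an orphan nuclear receptor, to 4.83 ± 3.23, against 49.5 ± 29.6 (-3.08, adjusted p = 0.0142). Emx1, a homeobox gene, was lower (-3.49, adjusted p = 0.0261), with -4.44 without Cre-positive 80, but edgeR did not call it (0.121), nor did limma when Cre-positive 45 or 76 or Cre-negative 46, 48 or 77 was left out (0.0556 to 0.0744).

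No gene of the podocyte list (0 of 11 other genes tested, median -0.45) or of the slit diaphragm relatives (0 of 7, median -0.02) was called by limma in either direction. Since limma called 13.8% of all genes tested, nothing is read from a count of 0 in lists this small. At an unadjusted p under 0.05 limma gave 2 podocyte genes, both lower, and 0 slit diaphragm relatives. Over all genes tested 6505 of 22874 passed that threshold in either direction, so nothing is read from these counts. edgeR and DESeq2 called 0 in each list. Of the genes in these lists, Cd2ap, an adaptor of the slit diaphragm, averaged 831.2 ± 144 in Cre-positive and 843.6 ± 165 in Cre-negative libraries. Nck1, which binds nephrin, averaged 1420 ± 171 in Cre-positive and 1221 ± 127 in Cre-negative libraries. Nphs1 itself was read in all 7 libraries.

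In the lists around single members most genes were not called, as among all genes tested, of which 13.8% were called. Among 7 tested genes of uromodulin processing and its relatives, Dmbt1, a secreted scavenger receptor that shares the zona pellucida domain of uromodulin, fell to 12.8 ± 9.01 normalized counts in Cre-positive, against 97.7 ± 29.7 in Cre-negative libraries (log2 fold change -2.99, limma adjusted p = 0.00368), and no other gene was called (median -1.73). Hpn, the gene of hepsin, was named after its values were seen and had 12.5, 61.1 and 7.3 in Cre-positive 45, 76 and 80, against 62.0, 36.4, 93.7 and 40.3 in Cre-negative 46, 48, 75 and 77 (adjusted p = 0.169). Of 9 tested genes around Klotho, FGF23 and vitamin D 1 was lower (median -0.31). That gene was Klb, the relative of Kl that serves as co-receptor for FGF21, with no read in Cre-positive libraries against a mean of 12.98 ± 7.69 in Cre-negative libraries, at least 12.6-fold lower against 3 reads over the group. Its adjusted p of 0.0236 became 0.0521 to 0.0573 when Cre-negative 75, Cre-negative 77 or any of the Cre-positive libraries was left out. Adam10, a protease that sheds Kl, averaged 2512 ± 276 in Cre-positive and 1680 ± 462 in Cre-negative libraries (0.61, adjusted p = 0.0698), and was called higher without Cre-negative 48 (0.0240), with a term for sample number range (0.69, adjusted p = 0.0170) and with a covariate for Y-linked reads (0.82, adjusted p = 0.0254).

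Of 6 tested relatives of Slc12a1 and Slc12a3 only Slc12a7, a potassium chloride cotransporter named after its values were seen, was called, at 406.3 ± 91.0 in Cre-positive and 228.8 ± 23.0 in Cre-negative libraries (log2 fold change 0.80, limma adjusted p = 0.0424; list median 0.09). It was not called with library total scaling (0.129) or when any library other than Cre-positive 80 was left out (0.0573 to 0.143). Of 5 other phosphate transporter genes Slc34a2, the relative of Slc34a1 known from lung and gut and named after its values were seen, was lower (-1.02, adjusted p = 0.0487; list median -0.01), but edgeR did not call it (0.0585), nor did limma when any library other than Cre-negative 77 was left out (0.0623 to 0.127). Slc20a1, the broadly expressed phosphate carrier, averaged 907.4 ± 182 in Cre-positive and 739.1 ± 74.7 in Cre-negative libraries (adjusted p = 0.367). Medians of the lists that hold Aqp6 or Klb were the same with those genes set at their bound.

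**Figure D4:**
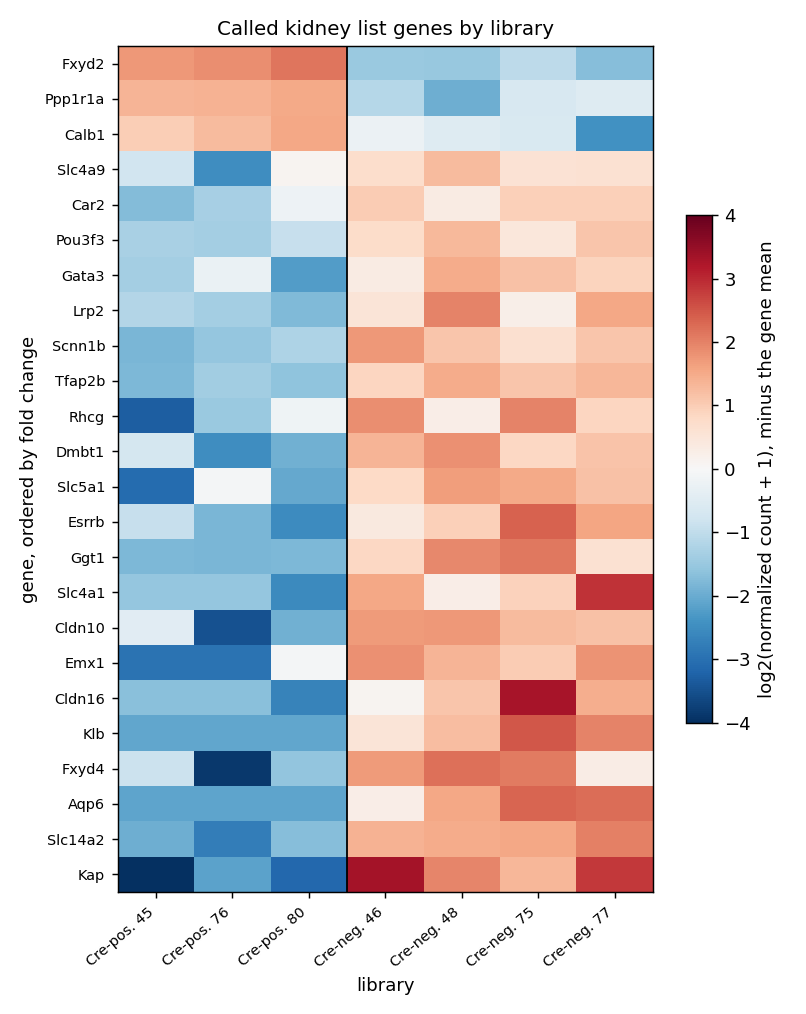
Colours give log2(normalized count + 1) minus the gene mean for the named kidney list genes that were called, ordered by fold change, in the 3 Cre-positive libraries (left) and the 4 Cre-negative libraries (right). Fxyd2, Ppp1r1a and Calb1 are red on the left, and the other genes are blue there in most tiles. Pale tiles there include Cre-positive 76 for Slc5a1 and Gata3 and Cre-positive 80 for Emx1, Rhcg, Car2 and Slc4a9.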

How the data were processed

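Gene expression was measured in 3 Cre-positive and 4 Cre-negative mTEC libraries, grouped by their titles. The submitters' processing notes name STAR 2.7.9a, DESeq2 and the build GRCm39. The counting tool is not given in the sources used here. The deposited table gives a signal per gene, the normalized count, which the authors rounded to 1 decimal, and its steps are those of whole reads over a factor for each library. Its coordinates equal GENCODE M21 on GRCm38 for 95.2% of 52403 shared genes, so positions are given on GRCm38. The 7 variance-stabilized columns were not used. Whole reads were recovered for 100% of values (tolerance 0.0501 normalized counts) through genes read in a single library and the authors' unrounded means.

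The 22874 genes averaging 5 normalized counts or more (32662 were left out) were tested with limma 3.58.1 on log2(normalized count + 1), genotype being the only term. This is a normalized signal, so the count tests, edgeR 4.0.16 and DESeq2 1.42.0 on recovered reads, are alternatives. Others were pseudocounts of 0.5 and 5, no filter, library total scaling, terms for sample number range and for Y-linked reads, and leaving out each library. The fits to the libraries used R 4.3.3, and the code was first checked on simulated counts with known changes. The members and lists were chosen with earlier results of these data known. Named genes are the 7 members, the 25 called list genes with the largest fold changes, the 5 not called with the highest means, the 3 nearest patterns per member, and overlapping or nearest genes. Some list genes count in the totals but are not reported here by name or in plots. No source used here mentions molecular identifiers, so limits at 0 reads cover counting error only.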

Additional observations from a re-analysis of the deposited data

Results flagged for a closer look

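In 3 of the 37 genes looked at, the farthest Cre-negative library stood apart from the other 3 by more than the 95% critical value of Dixon's test for 4 samples, which chance gives in about 1 of 20 genes. Nphs1 had 70.4 normalized counts in Cre-negative 46, against 41.4, 45.9 and 41.4 in Cre-negative 48, 75 and 77. Car2 had 190.1 in Cre-negative 48, against 307.6, 291.9 and 292.6 in Cre-negative 46, 75 and 77. Slc4a9 had 217.7 in Cre-negative 48, against 145.0, 133.3 and 136.5 in Cre-negative 46, 75 and 77.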

How the results depend on the processing

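No paired analysis was possible because the genotypes share no sample number. Across 15 alternatives, the log2 fold changes of Umod, Kl, Aqp2, Slc34a1 and Nphs1 kept their sign and moved by less than the spread within groups, and edgeR and DESeq2 gave Aqp2 no value because it was below the filter. Slc12a1 moved to -4.05 with a pseudocount of 5, since the added count is larger than its Cre-positive values. Leaving out a library in turn gave 2.80 to 3.93 for Umod, -6.19 to -5.001 for Slc12a1, -4.11 to -2.85 for Kl, -1.86 to -0.28 for Aqp2, -2.46 to -1.30 for Slc34a1, 0.68 to 1.13 for Nphs1 and -1.05 to 0.24 for Slc12a3. Slc12a3 turned to 0.24 without Cre-positive 76.

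Kidney list genes called lower numbered 14 to 21 and those called higher 3 to 4 over the fits that left out a library, against 26 and 4 with all libraries. Of the 30 called genes 15 stayed called under every alternative. edgeR called 19 lower and 4 higher, DESeq2 34 and 5, library total scaling 32 and 3, the sample number range term 26 and 6, the Y-linked covariate 18 and 4, no filter 22 and 3, and each other pseudocount 25 and 4. Cd2ap, not called in any fit, had -0.02 with all libraries, 0.0381 with the sample number range term, 0.13 with the Y-linked covariate, and 0.02, 0.09 and 0.13 without Cre-negative 46, Cre-negative 48 and Cre-positive 80, with -0.1186 without Cre-positive 76. The cause was not tested. Depth limits the low members, as Slc12a1 rests on 5 and Kl on 10 Cre-positive reads.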
